A study of Mus musculus with 4 samples.

Results

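The genes described here are 34 genes of glycolysis and of the cellular response to low oxygen, followed across 4 microarrays of mouse bone marrow cultures. They comprise 18 enzymes and transporters of glycolysis and 16 other genes that are regulated by hypoxia or regulate the response to it. A gene was measured where a probe set of the array carried its symbol and no other, and the brightest such probe set stood for the gene. In this way 32 of the 34 were measured, out of 19938 genes on the array, and Gpi1 and Eno1 were not analysed here. The 32 split into 16 glycolysis genes and 16 hypoxia genes. Bone marrow of wild-type mice, Bach1 (+/+), and of Bach1 knockout mice, Bach1 (-/-), both of B6 background, had been grown for 6 days in 20 ng/ml of GM-CSF. This growth factor drives marrow cells towards macrophages and dendritic-type cells. The cultures then received heme at 40 µM (written with a lower-case m in the labels) or its vehicle, sodium chloride with ammonium hydroxide. Adherent cells were taken 24 hours later and floating cells were discarded. With 1 array in each of the 4 groups, nothing checks the differences against replicates and none has a p-value, and the number of arrays limits the precision of every value. Whether the marrow of several mice was pooled, and the oxygen level of the incubator, are not given in the sources used here.

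Glycolysis converts glucose to pyruvate in the cytosol, and lactate dehydrogenase and lactate export let it run without mitochondrial respiration. The hypoxia-inducible factors are dimers of an oxygen-regulated alpha subunit (Hif1a, or Epas1, which encodes HIF-2alpha) with Arnt. Prolyl hydroxylases of the Egln family mark the alpha subunits for degradation when oxygen, iron and 2-oxoglutarate are at hand, and the stabilised factors raise most glycolytic genes by binding a short promoter element. Activated macrophages and dendritic cells are known for high glycolysis. Bach1 is a repressor of heme oxygenase and other genes that loses its hold on DNA when it binds heme.

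The promoter windows below belong to members whose heme response differed by 1.5-fold or more between the genotypes, a choice made from the values given further on. Of the 6 such genes, 5 had a single listed start, and Ndrg1 had no window in the table used. Each sequence is the 250 bases before the start of the gene, read 5′ to 3′ on the strand of the gene, from RefSeq on GRCm38.p6. Capitals mark the core of the hypoxia response element, ACGTG or GCGTG, on either strand, where matches may overlap. The windows are chr4:119108495-119108744 (plus strand) for Slc2a1, chr11:120948817-120949066 (plus) for Slc16a3, chr7:138909507-138909756 (minus) for Bnip3, chr8:45999851-46000100 (minus) for Ankrd37 and chr12:54203875-54204124 (minus) for Egln3.
Slc2a1: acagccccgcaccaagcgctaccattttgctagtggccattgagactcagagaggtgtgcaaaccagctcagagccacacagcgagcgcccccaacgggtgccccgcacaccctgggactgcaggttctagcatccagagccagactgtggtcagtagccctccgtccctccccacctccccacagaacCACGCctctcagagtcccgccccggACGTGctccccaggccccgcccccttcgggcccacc
Slc16a3: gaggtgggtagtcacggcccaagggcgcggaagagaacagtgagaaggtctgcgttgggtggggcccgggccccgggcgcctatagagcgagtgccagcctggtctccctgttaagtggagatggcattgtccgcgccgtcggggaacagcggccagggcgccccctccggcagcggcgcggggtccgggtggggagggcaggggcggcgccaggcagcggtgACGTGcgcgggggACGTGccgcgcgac
Bnip3: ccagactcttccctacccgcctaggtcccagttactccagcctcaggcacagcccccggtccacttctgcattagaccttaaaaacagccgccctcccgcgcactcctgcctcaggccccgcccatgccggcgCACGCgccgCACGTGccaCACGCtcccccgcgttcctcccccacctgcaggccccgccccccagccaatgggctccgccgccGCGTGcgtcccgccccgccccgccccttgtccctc
Ankrd37: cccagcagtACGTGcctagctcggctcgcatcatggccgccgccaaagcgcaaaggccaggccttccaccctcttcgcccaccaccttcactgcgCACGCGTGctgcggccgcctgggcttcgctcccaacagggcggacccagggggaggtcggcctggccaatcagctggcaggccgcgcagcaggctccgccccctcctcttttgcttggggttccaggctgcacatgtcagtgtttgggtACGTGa
Egln3: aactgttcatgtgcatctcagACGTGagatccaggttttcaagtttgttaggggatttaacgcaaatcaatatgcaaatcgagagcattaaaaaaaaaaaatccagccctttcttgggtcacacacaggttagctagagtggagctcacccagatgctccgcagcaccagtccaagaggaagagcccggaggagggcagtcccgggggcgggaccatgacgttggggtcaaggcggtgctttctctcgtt

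The core stood in each of the 5 windows. Slc2a1 and Slc16a3 held 2 matches each, Bnip3 held 5, Ankrd37 held 4 and Egln3 held 1. In Slc16a3 the first bases of the matches lay 27 and 14 bases before the start, and in Ankrd37 the nearest lay 6 bases before it, while the single match of Egln3 lay 229 bases before. A window was listed for 29 of the 32 measured genes, with 41 windows in all since some genes have several starts. Of these, 33 windows (80.5%) in 27 genes held the core, against 38.6% of all 32851 windows. The members were listed for glycolysis or regulation by hypoxia, so a higher share than over all windows is no independent result. The median GC share of the windows was 61.6% for the members and 52.4% for all. Among the 7977 windows at or above 61.6% GC, whose median GC share was 68%, the core stood in 64.9%. The hypoxia genes had it in 14 of 16 windows and the glycolysis genes in 19 of 25. The element bound by small Maf proteins with Bach1 or NRF2, searched as TGANNNNGC on both strands, stood in 12 of the 41 windows (29.3%), against 35.2% of all windows. A match is a run of letters in these windows and says nothing of binding.

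Signals are linear array intensities, and a difference is given as a log2 difference or a fold between arrays of the same gene. The median of all values, 30.96, served as the level limit, which at least 1 of the arrays compared had to reach. Genes at level that differed by 1.5-fold or more are counted as higher or lower, and smaller differences are given with their size. The log2 differences of single genes at level had a robust SD of 0.25 to 0.28 for each pair of arrays compared, which mixes noise with real differences. Of the 32 genes, 30 were at level in every comparison, and Eno2 and Adm in none. Medians, signs and highest or lowest arrays are given over all measured genes of a list, while their background is over genes at level. The labelled cell type was checked against its markers: macrophage markers summed to signals between 19463 and 21708 on the 4 arrays, with 12 of 13 measured markers at level. Of these 12, 6 were 1.5-fold lower and 1, Cd14, was higher with heme in wild type (background over all genes at level 4.73% and 4.99%). In labelled knockout vehicle 4 were lower and 0 higher than in wild-type vehicle (background 4.31% and 3.25%). With heme in both cultures 3 were lower and 1 was higher in the labelled knockout (3.43% and 3.38%). The largest signal in the sums, that of Lyz2, lay between 9990 and 10705. Dendritic cell markers summed to 12947 and 10373 in wild type and to 3953 and 3275 in the labelled knockout (vehicle, then heme). Of the 11 at level, 9 were 1.5-fold lower in each comparison of the genotypes (background 4.31% in vehicle and 3.43% with heme). Neutrophil markers summed to 9304 and 12679 in wild type and to 7460 and 9966 in the labelled knockout. With heme in wild type 6 of 12 at level were 1.5-fold higher (background 4.99%). The largest signal in these sums, that of S100a8, lay between 3213 and 5613. By gene, 4 of 13 neutrophil markers at level were 1.5-fold higher and 1 lower in labelled knockout vehicle than in wild-type vehicle (3.25% and 4.31%). With heme in both cultures, 1 was higher and 2 were lower in the labelled knockout (3.38% and 3.43%). No B, T and NK cell marker and no mast cell or basophil marker reached level on any array. Of the measured erythroid markers 4 of 6 reached level on some array, with sums between 154.1 and 183.8, and of the fibroblast and endothelial markers 4 of 10, with sums between 209.4 and 266.9. The part of these markers in the differences below was not tested, and a change in the makeup of a culture and a change within its cells cannot be told apart in bulk RNA. The Bach1 probe set read 212 and 264 in wild type and 211 and 204 in the labelled knockout. Whether its probes lie in the deleted part is not given, so it checks nothing about the labels. Hmox1, the heme oxygenase gene repressed by Bach1, read 1827 and 9881 in wild type and 9047 and 10330.5 in the labelled knockout.

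With heme, the median difference of the glycolysis genes was above 0 in wild type and below 0 in the labelled knockout. The median log2 difference of the 16 was 0.21 for wild type and -0.17 for the labelled knockout. Over the 15 at level it was 0.19 and -0.11, against medians of -0.01 and 0.02 over all genes at level. The response was above 0 for 11 of the 16 glycolysis genes in wild type and for 5 of 16 in the labelled knockout, where 48.6% and 52.4% of all genes at level were above 0. The hypoxia genes had a median of 0.05 for wild type and -0.27 for the labelled knockout, with 9 and 2 of 16 above 0. Few single genes passed 1.5-fold. In wild type, Slc16a3 and Ankrd37 were higher with heme (2 of 30 at level, background 4.99%) and Epas1 was lower (1 of 30, background 4.73%). In the labelled knockout, no member was higher (0 of 30, background 5.03%), and Hk2, Egln3 and Epas1 were lower (3 of 30, background 3.07%). The wild-type counts are near the background, and the labelled knockout count rests on 3 genes. With 32 added to each signal, Hk2 (log2 -0.54) and Egln3 (-0.58) no longer passed 1.5-fold and Epas1 alone was left. Over the 4 arrays, labelled knockout vehicle was the highest for 16 of the 32 genes (23.7% of genes at level) and wild-type heme for 13 (23.6%). Wild-type vehicle was the lowest for 12 of the 32 (24.2%) and labelled knockout heme for 9 (22.4%).

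**Figure D1:**
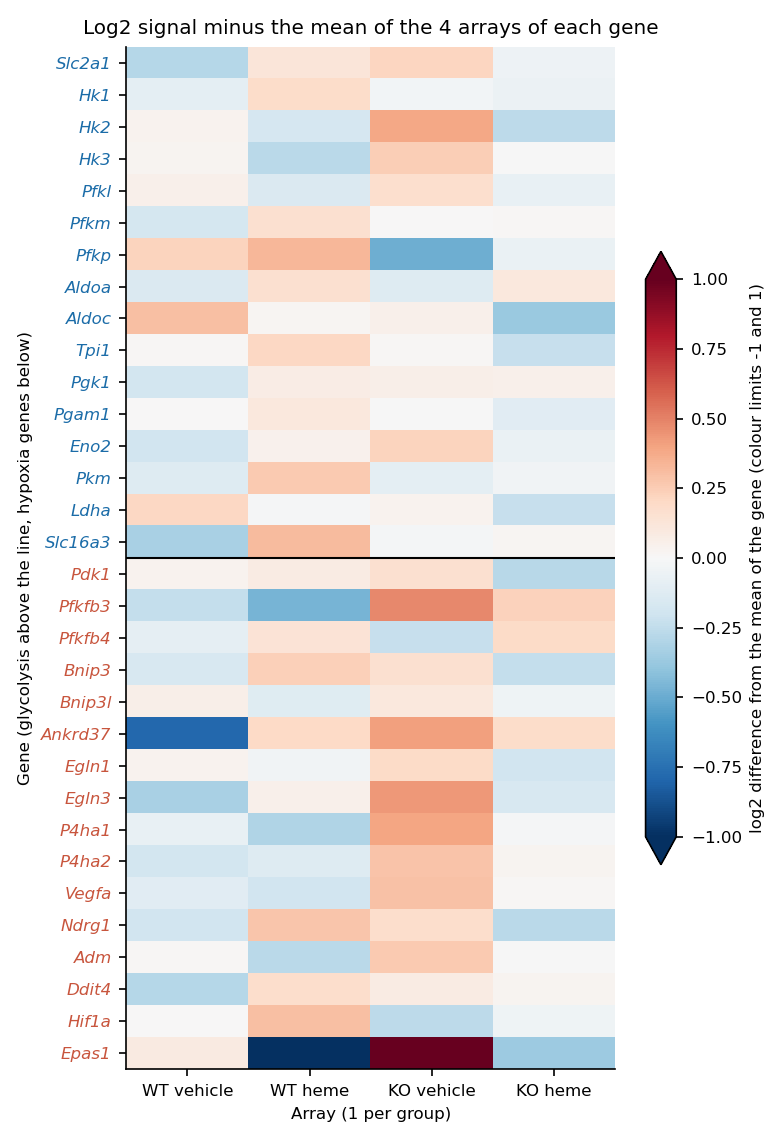
Log2 signal of the 32 measured genes on the 4 arrays (columns, 1 array per group; WT is wild type and KO the labelled knockout), each gene set to its own mean over the arrays and coloured from blue (below) to red (above), with the colour limits at -1 and 1. The array of labelled knockout vehicle is the reddest for 11 of the 16 hypoxia genes below the line, and wild-type heme is the reddest for 9 of the 16 glycolysis genes above it.

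The transporters that bring glucose in and take lactate out come first. Slc2a1, which encodes the glucose transporter GLUT1, read 766 with vehicle and 1017 with heme in wild type, and 1085.5 with vehicle and 905 with heme in the labelled knockout. The wild-type vehicle array was thus the low one, and heme was 1.33-fold above it in wild type but 1.20-fold below vehicle in the labelled knockout. Slc16a3, the lactate exporter MCT4, read 301.5, 470.2, 372 and 383 in the same order. Heme was 1.56-fold above vehicle in wild type and 1.03-fold above it in the labelled knockout, so that wild-type heme stood above the other arrays.

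Of the hexokinases, which trap glucose as glucose 6-phosphate, Hk2 alone passed 1.5-fold with heme, in the labelled knockout. In wild type it had the smallest difference of the 3. Hk2 read 147 and 128 in wild type and 188 and 120 in the labelled knockout (vehicle, then heme in each pair, as below), 1.57-fold lower with heme in the latter. Hk3, the form found in myeloid cells, read 125 and 101, and then 145 and 122, lower with heme in both. For Hk1 the brightest probe set read 1590.4 and 1933 in wild type and 1670.1 and 1630.1 in the labelled knockout. The only accession listed for that probe set is also listed for 16 probe sets that name Rpl17 as well, so its signal may not be that of Hk1. The other Hk1 probe set read 94.5 and 113, and then 103 and 111, which is higher with heme in both genotypes.

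The 3 phosphofructokinase genes, whose enzyme commits sugar to glycolysis, did not move together. Pfkp, the platelet form, read 337 and 363 in wild type and 205 and 275 in the labelled knockout. It was 1.64-fold lower in the labelled knockout in vehicle and 1.32-fold lower with heme. In vehicle this was the reverse of most members, of which 25 of 32 were above 0, and with heme the same direction as most, of which 22 of 32 were below 0. Pfkl, the liver form, read 178 and 155, and then 192 and 164, while Pfkm, the muscle form, read 42.9 and 54.0, and then 48.6 and 48.8.

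Aldolases split the sugar, and the 2 measured forms ran opposite ways. Aldoa read 3831 and 4716 in wild type and 3871 and 4557 in the labelled knockout, 1.23-fold and 1.18-fold higher with heme. Aldoc read 942 and 775, and then 795 and 593, 1.22-fold and 1.34-fold lower with heme. The triose steps and the first steps of the payoff phase come next. Tpi1, triose phosphate isomerase, read 979 and 1116.5 in wild type and 976 and 827 in the labelled knockout. Pgk1, which yields the first ATP, read 3036 and 3628, and then 3589 and 3570.1, so that wild-type vehicle was the low array. Pgam1, phosphoglycerate mutase, read 1885 and 2023.5, and then 1873 and 1740. Neither Pgk1 nor Pgam1 differed by as much as 1.5-fold between any 2 arrays compared.

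At the end of the pathway, Pkm, pyruvate kinase, read 1272 and 1670.3 in wild type and 1305 and 1361 in the labelled knockout, 1.31-fold and 1.04-fold higher with heme. Ldha, which turns pyruvate into lactate, read 1345 and 1156 in wild type and 1198 and 993 in the labelled knockout. It was lower with heme in both genotypes, by 1.16-fold and 1.21-fold. Eno2, the neuronal enolase, read between 12.0 and 16.0, below level on all arrays.

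The switches around glycolysis were next examined. Pfkfb3, which makes the activator of phosphofructokinase, read 155 and 132 in wild type and 254 and 214 in the labelled knockout. It was 1.65-fold higher in the labelled knockout in vehicle and 1.62-fold higher with heme, and heme was 1.17-fold and 1.19-fold below vehicle in wild type and the labelled knockout. Pfkfb4, of the same family, read 74.2 and 86.8, and then 67.3 and 90.3, and was the 1 member of 32 brightest on the array of labelled knockout heme, where 25.9% of genes at level were. Pdk1, a kinase that inhibits pyruvate dehydrogenase, read 356 and 369 in wild type and 388 and 288 in the labelled knockout, 1.35-fold lower with heme in the latter.

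Among the 32 members, Ankrd37 had the highest log2 difference with heme in wild type, 0.99. This ankyrin-repeat gene, a direct HIF-1 target, read 122 and 243 in wild type and 280.5 and 240 in the labelled knockout. The wild-type vehicle array alone was low, 1.98-fold below wild-type heme and 2.29-fold below labelled knockout vehicle. Egln3, a prolyl hydroxylase that is itself induced by HIF, read 928 and 1200.0, and then 1568 and 1036. Heme was 1.29-fold above vehicle in wild type and 1.51-fold below it in the labelled knockout. Egln1, the main oxygen sensor of the family, read 361 and 345 in wild type and 403.5 and 308 in the labelled knockout.

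Bnip3, a mitochondrial receptor for autophagy, read 1925 and 2539 in wild type and 2399 and 1820.3 in the labelled knockout, 1.32-fold higher with heme in the former and 1.32-fold lower in the latter. A further Bnip3 probe set gave 1458 and 2105.0, and then 1848 and 1409.5, in the same directions. Its relative Bnip3l, known for clearing mitochondria in red cell precursors, read 2281 and 2003, and then 2349.9 and 2120.1, lower with heme in both. Ndrg1, a stress-induced gene named for its regulation by N-myc, read 271 and 374 in wild type and 348.5 and 255 in the labelled knockout. For both Bnip3 and Ndrg1, labelled knockout heme was the lowest of the 4 arrays and wild-type heme the highest.

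The collagen prolyl hydroxylases P4ha1 and P4ha2 and the secreted factors were highest in labelled knockout vehicle. P4ha1 read 286 and 244 in wild type and 396 and 299.5 in the labelled knockout, P4ha2 read 33.7 and 34.9, and then 46.7 and 39.0. Vegfa, the vascular growth factor, read 583 and 553 in wild type and 770.3 and 635 in the labelled knockout. All 3 were higher in the labelled knockout in vehicle by 1.32-fold to 1.39-fold and by less with heme. Adm, adrenomedullin, read between 17.97 and 26.06 and was below level. Ddit4, an inhibitor of mTORC1, read 38.0 and 52.5 in wild type and 49.0 and 47.2 in the labelled knockout, with wild-type vehicle low.

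The genes of the 2 oxygen-regulated alpha subunits differed in opposite directions. Hif1a read 578 and 712 in wild type and 483 and 561 in the labelled knockout, higher with heme in both (1.23-fold and 1.16-fold) and lower in the labelled knockout in both conditions (1.20-fold in vehicle, 1.27-fold with heme). Epas1 read 93.4 and 39.8 in wild type and 233 and 68.2 in the labelled knockout. Heme was 2.35-fold below vehicle in wild type and 3.41-fold below it in the labelled knockout. Epas1 was 2.49-fold and 1.71-fold higher in the labelled knockout than in wild type, in vehicle and with heme. With 32 added to each signal, its log2 responses went from -1.23 to -0.80 and from -1.77 to -1.40. Epas1 was the 1 member past 2-fold with heme in either genotype, where 0.891% and 0.452% of genes at level were 2-fold lower.

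**Figure D2:**
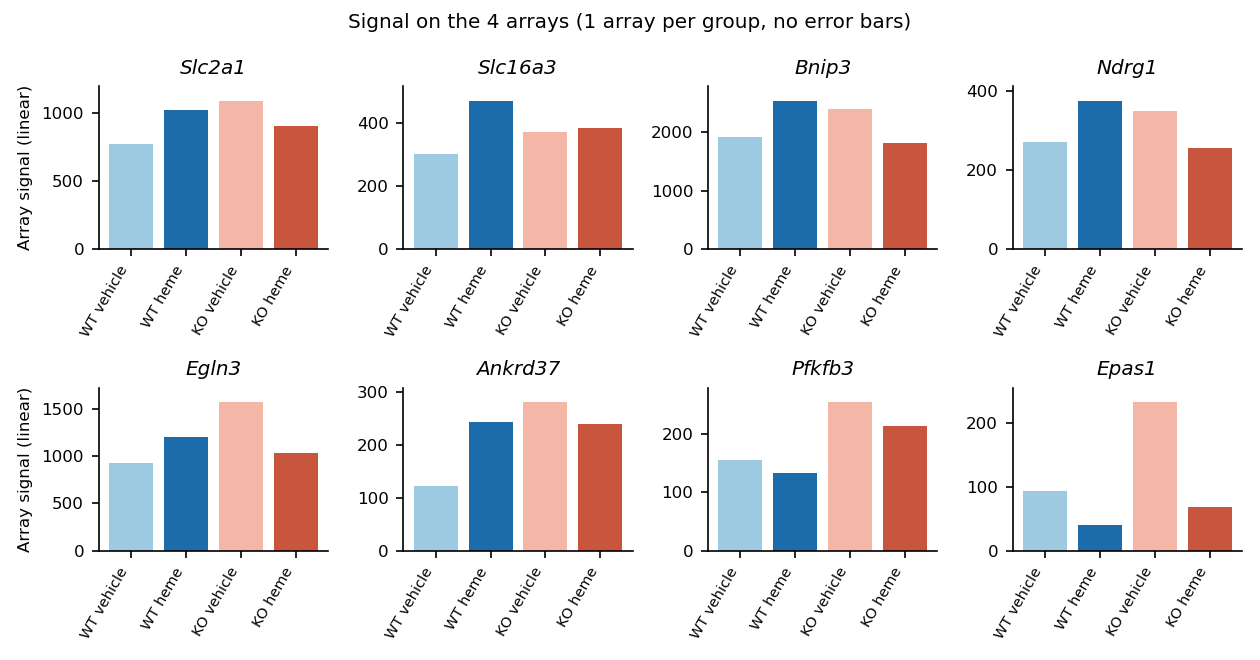
Linear array signal (vertical axis, from 0) of 8 genes on the 4 arrays (WT is wild type and KO the labelled knockout), 1 array per group and so without error bars. Bnip3 and Ndrg1 are highest in wild-type heme and lowest in labelled knockout heme, Ankrd37 is low in wild-type vehicle alone, Pfkfb3 is higher on both labelled knockout arrays, and Epas1 is lower with heme in both genotypes.

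The labelled knockout was then compared with wild type in vehicle, that is without added heme and with 1 array on each side. The hypoxia genes had a median log2 difference of 0.37 (labelled knockout minus wild type), and 14 of 16 were above 0 by any amount, where 47.3% of all genes at level were above 0 and their median was -0.02. The glycolysis genes had a median of 0.09 and 11 of 16 above 0. At 1.5-fold, Pfkfb3, Ankrd37, Egln3 and Epas1 were higher (4 of 30 at level, background 3.25%) and Pfkp was lower (1 of 30, background 4.31%). Ankrd37 and Epas1 passed 2-fold, as 0.525% of genes at level did.

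With heme in both cultures, most of this difference was not seen. The median of the hypoxia genes was 0.02, with 8 of 16 above 0, and that of the glycolysis genes was -0.19, with 2 of 16 above 0 (background 52%). Hk3 and Pfkl were the 2 glycolysis genes above 0. At 1.5-fold, Pfkfb3 and Epas1 were higher in the labelled knockout (2 of 30, background 3.38%) and none was lower (0 of 30, background 3.43%). With 32 added to each signal neither passed, at log2 0.58 for Pfkfb3 and 0.48 for Epas1. Tpi1, at 1.35-fold, and Ndrg1, at 1.47-fold, below wild type, were the lowest of their groups. Ankrd37 was 2.29-fold higher in vehicle and 1.01-fold lower with heme, and Egln3 was 1.69-fold higher and 1.16-fold lower. The comparisons in vehicle and with heme share no array with each other, but each shares an array with each heme response.

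**Figure D3:**
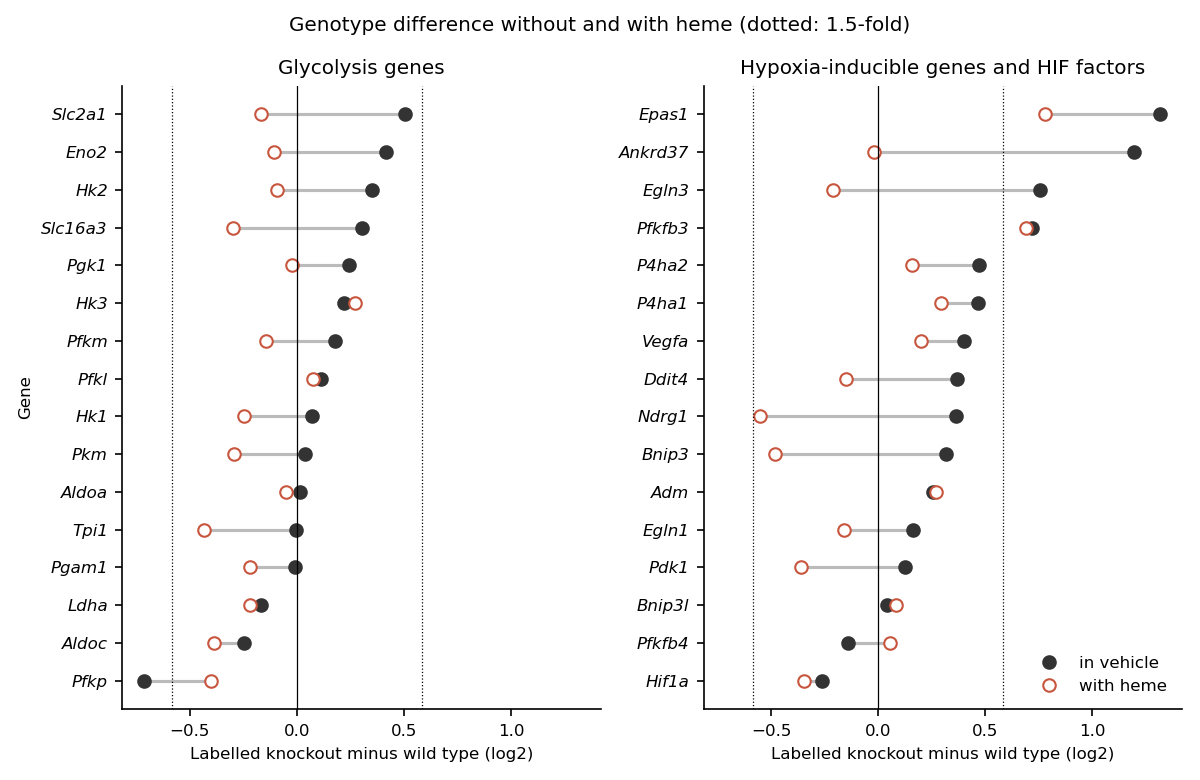
Log2 difference between labelled knockout and wild type (horizontal axis) for each measured gene, in vehicle (filled points) and with heme (open points), with dotted lines at 1.5-fold. Filled points lie above 0 for 14 of 16 hypoxia genes (right), while open points lie below 0 for 14 of 16 glycolysis genes (left), and Pfkfb3 and Epas1 stay past 1.5-fold in both.

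The difference between the heme responses themselves (labelled knockout response minus wild-type response) uses all 4 arrays and has no test with 1 array per group. It was below 0 for 27 of the 32 members, where 45.6% of the 11155 genes at level on any array were below 0. Its median was -0.29 for glycolysis genes and -0.32 for hypoxia genes (-0.26 and -0.32 for those at level), against 0.03 for all genes at level. Those past 1.5-fold were all lower: Slc2a1 (log2 -0.67), Slc16a3 (-0.60), Bnip3 (-0.80), Ankrd37 (-1.21), Egln3 (-0.97) and Ndrg1 (-0.92), that is 6 of 30 at level (background 5.15%), and none was higher (0 of 30, background 6.27%). Ankrd37 alone passed 2-fold, as 0.879% of genes at level did in that direction. Pfkp had the highest value, 0.31. By sign alone, 13 of 32 members had heme above vehicle in wild type and below it in the labelled knockout (background 18.1%) and none the other way round (21.5%). A further 12 were lower in both (29.5%) and 7 higher in both (30.7%). The 13 include Hk1, whose other probe set was above 0 in both genotypes (log2 0.26 and 0.11). They also include Pgk1, at -0.01 in the labelled knockout.

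**Figure D4:**
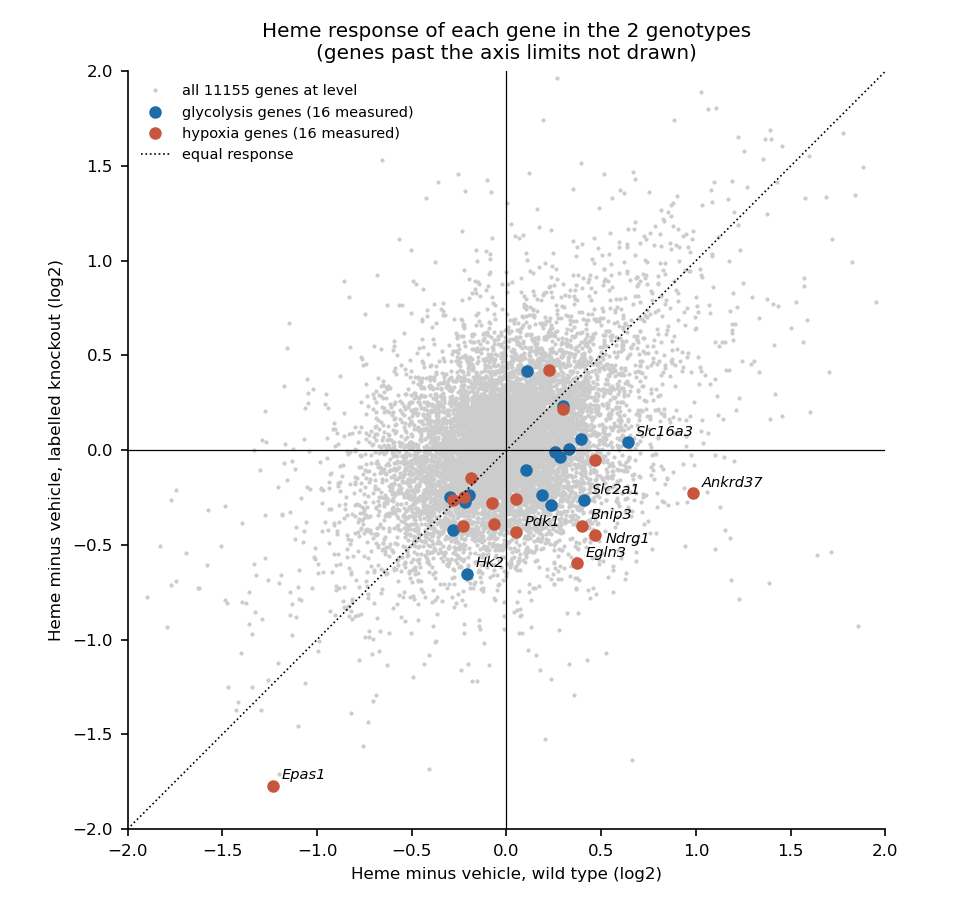
Log2 heme response in wild type (horizontal axis) against that in the labelled knockout (vertical axis), for the 11155 genes at level on any array (grey) and the 16 glycolysis (blue) and 16 hypoxia genes (red), with named points for the larger differences and genes past the axis limits left out. The members with opposite responses, Ndrg1, Bnip3 and Egln3 among them, lie to the lower right of the origin, where 13 of 32 fall, and none lies to the upper left.

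Other genes of glucose use and of the hypoxia response, from lists that did not overlap the 34, were read in the same way. Of 34 further hypoxia targets 32 were measured and 27 at level, with list medians of 0.00 and -0.16 for the heme responses in wild type and the labelled knockout. Ero1a, an oxidase of protein folding, was higher with heme in wild type (1102 and 1888) and not in the labelled knockout (1601 and 1439). Hilpda, a lipid droplet gene, was higher in the labelled knockout, at 172 and 204 in wild type against 437 and 339. Ak4, a mitochondrial adenylate kinase, read 197 and 228, and then 232 and 165.5. The difference between responses had a median of -0.09 over the 32 genes. It was below 0 for 24 of them, where 45.6% of all genes at level were below 0. At 1.5-fold, 4 of the 27 at level were lower in it (Ero1a, Hilpda, Ak4 and Selenbp1, background 5.15%). Car9 was the 1 of 27 that was higher (background 6.27%). In vehicle, Hilpda and Bhlhe41 were 1.5-fold higher in the labelled knockout (2 of 27, background 3.25%) and Tgfbi lower (1 of 27, background 4.31%). The list median in vehicle was 0.03, with 17 of 32 above 0, where the hypoxia members had 0.37 and 14 of 16. With heme in both cultures the list median was -0.10. Hilpda was then 1.5-fold higher in the labelled knockout (1 of 27, background 3.38%), and Bhlhe40, Selenbp1 and Nampt were lower (3 of 27, background 3.43%).

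Of 17 other glycolysis genes 13 were measured, with medians of 0.05 for the wild-type heme response and 0.17 for that of the labelled knockout. Slc2a6, a glucose transporter of the GLUT family, read 194 and 292 in wild type and 130.1 and 205 in the labelled knockout, past 1.5-fold with heme in both. The difference between the responses had a median of 0.13 over these 13 genes and was above 0 for 9 of them, the opposite sign to the glycolysis members. Minpp1 (log2 0.92) and Bpgm (0.72), which both act on bisphosphoglycerate, passed 1.5-fold upwards (2 of 10 at level, background 6.27%). None of the 10 at level passed it downwards (background 5.15%).

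The pentose phosphate branch, which leaves glycolysis at glucose 6-phosphate and yields NADPH, had list medians of 0.37 for wild type and 0.29 for the labelled knockout, and thus the same direction in both. Pgd read 1044 and 1468 in wild type and 1114 and 1624 in the labelled knockout, and Taldo1 read 809 and 1045, and then 714 and 1148. Of its 7 measured genes at level, Taldo1 in the labelled knockout was the 1 past 1.5-fold (background 5.03%). Among 8 glycogen genes, the branching enzyme Gbe1 read 143 and 316 in wild type and 240 and 268 in the labelled knockout, a pattern like that of Ankrd37 with wild-type vehicle low. Of the 11 genes for pyruvate entry into mitochondria at level, Pdhx was the 1 past 1.5-fold in any comparison. Pdhx, a binding subunit of pyruvate dehydrogenase, read 65.1 and 58.4, and then 41.0 and 82.0. It was higher with heme in the labelled knockout (background 5.03%), lower in labelled knockout vehicle (4.31%) and higher in the difference between responses (6.27%). Of 15 regulators of HIF at level, none passed 1.5-fold with heme in either genotype. The background was 4.99% higher and 4.73% lower in wild type, and 5.03% and 3.07% in the labelled knockout. At such shares few or none of 15 genes would pass. Hif1an, the asparagine hydroxylase that restrains HIF, read 31.6 and 47.4 in wild type and 44.3 and 34.7 in the labelled knockout, close to the level limit. Its difference with heme in wild type, 1.498-fold, fell just short of the rule. In the difference between responses Hif1an was the 1 of these 15 past 1.5-fold, and it was lower (log2 -0.94, background 5.15%). Rbx1, of the ligase that degrades HIF, was lower in labelled knockout vehicle (552 and 361), as the 1 of 15 past 1.5-fold there (background 4.31%).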

How the data were processed

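The 4 arrays measured total RNA of adherent cells, labelled as biotinylated cRNA with the Ovation PicoSL kit, per the labels' protocols. Per the labels, the authors deposited RMA intensity on a linear scale. RMA includes background correction and quantile normalization, which forces the arrays to a like distribution, so a shift common to all genes would not be seen. Groups follow the sample labels, from which the series design text departs in both cells and RNA kit. The sources used here give no genome build.

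Probe sets were named from the array annotation, with symbols updated by Entrez number from the RefSeq gene table of GRCm38.p6 (21698 of 21789 single-symbol probe sets matched). Several probe sets stood for 6 of the measured members, and the brightest by mean log2 over the 4 arrays was used. Pgk1 and Pgam1 each had a pair of probe sets with identical values, and the copies of these and other multicopy genes cannot be told apart. No replicates exist, so no test was run. Values were taken to log2 and differenced between arrays, with no scaling added. Background shares are over the genes at level in each comparison. Median array signals lay between 30.4 and 31.4.

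The members and lists were chosen with earlier results of these data known. All 34 members are named where measured. From the other lists, genes were named among the 4 largest differences past 1.5-fold and at level. Pgd was picked from its values, as were the counts of which array was highest or lowest and of signs. The alternatives were 2-fold and 3-fold rules, no level filter and 1 at the 75th percentile, quantile normalization applied again, lowess centring, 32 added to each value, averaging the probe sets of a gene, members at level alone, means for medians and other splits of the members. The probe set with the most accessions was added after seeing the data. Scripts ran in Python 3.11.15 with pandas 2.3.3, numpy 2.4.6, matplotlib 3.10.9 and, for lowess, statsmodels 0.14.6.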

Additional observations from a re-analysis of the deposited data

Results flagged for a closer look

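The log2 difference with heme had opposite signs in the 2 genotypes for 3 members, each by more than the robust SD of single genes, with 1 array per group and no test of the difference. The share of all genes at level that meets this rule was not counted, so the 3 members cannot be set against a background. The labelled knockout response minus the wild-type response was log2 -0.80 for Bnip3, -0.97 for Egln3 and -0.92 for Ndrg1. For the glycolysis genes as a list the median response was also opposite, 0.21 for wild type and -0.17 for the labelled knockout. The median of the difference between responses was -0.29, likewise not tested. A list was flagged where both medians passed 0.1 in size. The labelled knockout median was -0.106 for members at level alone and, short of that limit, -0.097 with 32 added to each signal.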

How the results depend on the processing

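No paired analysis was possible because each group held 1 array, and for the same reason no array could be left out. Of 85 recomputed list medians, none changed sign where it had been 0.1 or more in size, and none moved by more than 0.1. Of the recomputed counts of members, 73 stayed within 1.5 times of the count given and 17 did not. With the 2-fold rule, members higher with heme in wild type went from 2 to 0, lower with heme in the labelled knockout from 3 to 1, higher in labelled knockout vehicle from 4 to 2, lower there from 1 to 0, higher in the labelled knockout with heme from 2 to 0, and lower in the difference of responses from 6 to 1. With the 3-fold rule 1 member was left, Epas1, lower with heme in the labelled knockout, and the other counts were 0. The filter at the 75th percentile left 0 lower with heme in wild type and 1 higher in the labelled knockout with heme. With 32 added, 1 stayed lower with heme in the labelled knockout and 0 higher in the labelled knockout with heme. With the values normalized again, centred, added to or taken from other probe sets, the median of all genes at level stayed within 0.04 of 0 in each comparison. Of the recomputed differences of single members, 795 moved by less and 5 by more than the robust SD of the comparison, all of Epas1 or Eno2 with 32 added, and no called one changed sign.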
